A study of Rattus norvegicus with 10 samples.

Results

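Rab GTPases are small GTP-binding proteins that mark membranes of the secretory and endocytic routes. Each switches between an active GTP-bound form, loaded by a guanine nucleotide exchange factor (GEF), and an inactive GDP-bound form, restored by a GTPase-activating protein (GAP). Active Rabs recruit effectors, such as tethers and motor adaptors, that move, dock and fuse vesicles, and a lipid anchor added by prenylation holds them on the membrane. Chondrocytes, which export large amounts of collagen and proteoglycan, depend on these routes for matrix secretion.

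The Rab GTPases described here are the rows of the deposited table whose symbol is Rab followed by a number and at most a letter and a digit, which leaves out Rab-interacting proteins. There were 37 such genes among 10184 listed. They were divided by the compartment each is best known for, namely ER and Golgi (8 listed genes), early and recycling endosome (12), late endosome, lysosome and autophagy (5), secretory vesicles (9) and cilium (3). Several Rabs act at more than 1 of these places, Rab8a, Rab8b and Rab10 also at the cilium, and each was counted once. Of 60 Rab symbols considered, 23 had no row by symbol and were not analysed here, among them Rab1b, Rab5a, Rab14, Rab27a and Rab32.

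The cells were RCS cells, a rat chondrosarcoma line, either wild type (WT, 5 libraries) or with a knockout of the arylsulfatase L gene (ARSL KO, 5 libraries). All cultures received no treatment and were harvested 48 h after seeding, and the libraries came from a digital mRNA sequencing service. The labels call the libraries biological replicates, but do not say whether the knockout cells were 1 clone or several. A difference between the genotypes therefore cannot be told apart from another difference between the lines, and p-values measure the spread between these libraries. Here the question is which Rab genes differ in expression when ARSL, a Golgi sulfatase, is deleted.

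Values are given as normalised reads, that is whole reads recovered from the deposited variance-stabilized values and divided by the size factor of the library. Recovered reads, summed over the listed genes, were 2065594 to 2591819 per library, and the 37 Rab genes together took 0.263% to 0.287% of them. Reads of genes that were not listed are not in these sums. Of 9 chondrocyte markers 8 were listed, summing to 36082 to 60937 normalised reads in WT and 34548 to 47118 in KO, while Sox9 had no row by symbol. The weakest of the 8, Matn3, had 12.7 to 53.6 normalised reads across the libraries. Of 18 markers of other cell types 3 were listed, with Krt8 at 395.5 to 509.5 and Pdgfra and Cd68 at 10.9 or fewer normalised reads in every library. No row carried the symbol Arsl, so the genotype labels were not checked against the targeted gene. On the first principal component, with 51.1% of the variance, WT 3 and WT 4 scored 28 and 26.8 and ARSL KO 4 scored 7.91, against -15.0 to -2.96 for the other 7 libraries. Results are therefore also given without these 3 libraries, an alternative chosen with the data in view.

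In KO cells 1 Rab gene was called as changed, Rab28, a ciliary Rab, which fell from 384.8 ± 16.7 to 229.3 ± 17.7 normalised reads (SD, n = 5 each). None was called higher, and 32 of the 33 tested members did not pass. A difference is KO minus WT on the log2-like scale of the deposited values, where it understates the fold of genes with few reads. It was tested with limma over all genes with a mean of about 10.7 normalised reads or more, and a gene was called at an adjusted p under 0.05. Of all 8431 genes tested, 1.14% were called, so a count of 1 in 33 does not by itself set the family apart. The median difference of the 33 Rab genes was -0.01, with 16 above 0 and 17 below, beside a median of 0.01 over all genes tested. KO and WT values did not overlap for 2 Rab genes, Rab28 and Rab11b, and for 4.26% of all genes. Before adjustment, p was under 0.05 for 4 Rab genes, Rab28, Rab11b, Rab20 and Rab4b, and for 13.5% of all genes. Without WT 3, WT 4 and ARSL KO 4, Rab28 was again the 1 called member of 33, while 3.58% of all genes were called.

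**Figure D1:**
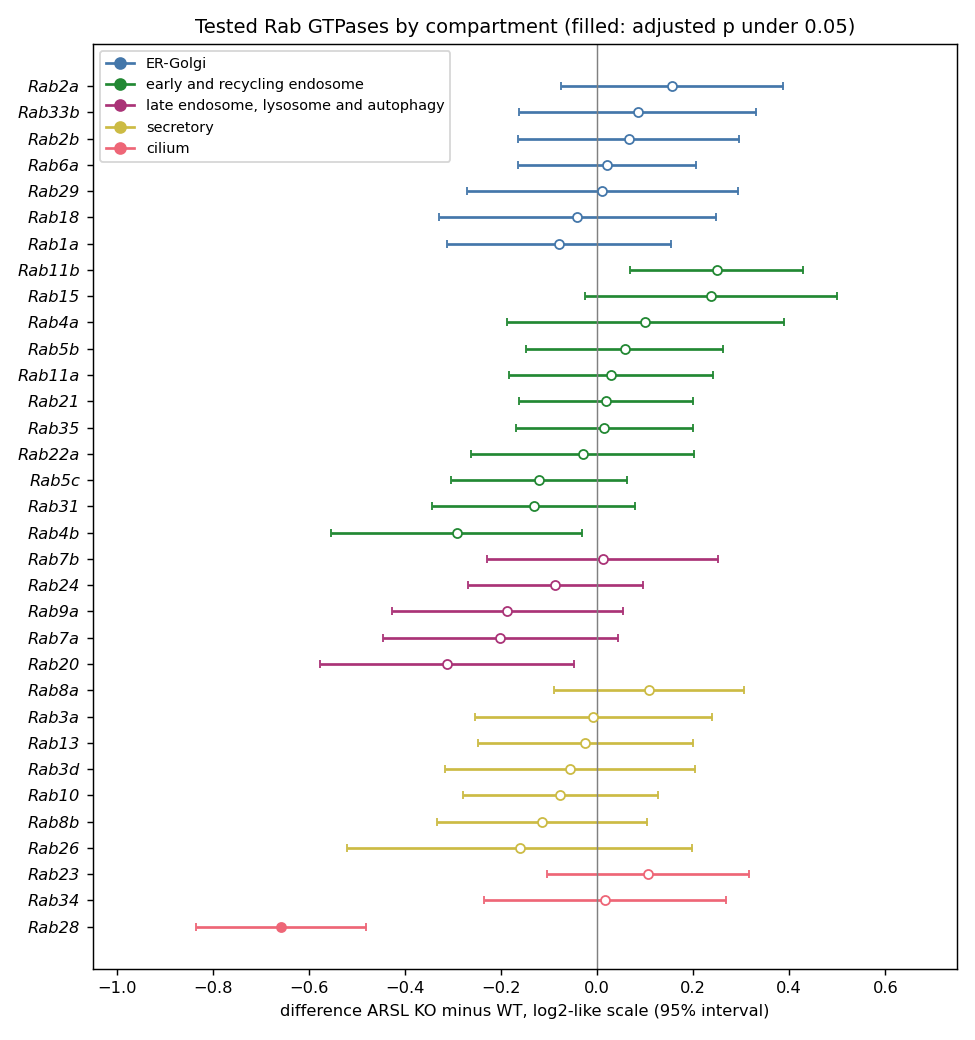
Difference of ARSL KO minus WT for the 33 tested Rab GTPases, in units of the log2-like scale, with 95% intervals from limma, coloured by compartment and filled where the adjusted p was under 0.05. Rab28, at -0.66, is the 1 filled point; the intervals of Rab11b, Rab20 and Rab4b also leave out 0, but their adjusted p did not pass.

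Rab28 is a distant member of the family that is found at the base of the cilium and in the photoreceptor outer segment, where its loss causes a cone-rod dystrophy in humans. It carries a farnesyl anchor, unlike most Rabs, which carry geranylgeranyl groups. Rab28 (ENSRNOG00000017074) had 404.4, 385.2, 365.4, 397.7 and 371.0 normalised reads in WT 1 to 5. It had 226.5, 207.5, 231.7, 224.5 and 256.5 in ARSL KO 1 to 5. Every KO library was below every WT library, with the highest KO value at 256.5 and the lowest WT value at 365.4. The fall was 1.68-fold in normalised reads, and 0.66 on the log2-like scale (95% interval -0.84 to -0.48, SE 0.083; limma adjusted p = 0.00126). An exact permutation test of the 10 values gave p = 0.0079, two-sided, the smallest that 5 against 5 libraries allow. That p follows from the lack of overlap, which 4.26% of all genes shared. Rab28 was also known from earlier results of these data to stand out, so this test adds no separate support. Of the 2 WT libraries that stood apart over all genes, WT 4 lay within the range of WT 1, WT 2 and WT 5 for Rab28. WT 3, at 365.4, lay below that range and above every KO library. Without WT 3, WT 4 and ARSL KO 4 the fall was again 1.68-fold (limma adjusted p = 6.03e-05).

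The promoter window of Rab28 is shown because it belongs to the 1 called member, and that of Rab11b because it was the member with higher KO values in every library. Both run from 250 bases before to 50 bases after the gene start, 5′ to 3′ on the gene's strand, and come from RefSeq on the rat build GRCr8, a later build than the rn6 used for counting. The Rab28 window is chr14:73458178-73458477 on the plus strand, and the Rab11b window is chr7:15236705-15237004 on the minus strand. Capitals mark matches, on either strand, of 7 short motifs, none of which contains another. The GC box was searched as GGGCGG and the CCAAT box by its name. The TATA box was searched as TATAAA. The half-site of the cyclic AMP response element (CRE) was TGACGT. The E-box was searched with the letters CACGTG. The core bound by the factor YY1 was AAGATGGC. The half-site of RFX factors, known from ciliary genes, was searched as GTTGCC.
Rab28: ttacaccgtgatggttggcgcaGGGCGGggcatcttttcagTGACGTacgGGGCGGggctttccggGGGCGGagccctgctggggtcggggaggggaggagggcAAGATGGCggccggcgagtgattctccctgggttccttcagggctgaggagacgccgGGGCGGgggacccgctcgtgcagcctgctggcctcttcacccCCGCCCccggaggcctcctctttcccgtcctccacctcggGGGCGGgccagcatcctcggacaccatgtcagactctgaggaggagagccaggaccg
Rab11b: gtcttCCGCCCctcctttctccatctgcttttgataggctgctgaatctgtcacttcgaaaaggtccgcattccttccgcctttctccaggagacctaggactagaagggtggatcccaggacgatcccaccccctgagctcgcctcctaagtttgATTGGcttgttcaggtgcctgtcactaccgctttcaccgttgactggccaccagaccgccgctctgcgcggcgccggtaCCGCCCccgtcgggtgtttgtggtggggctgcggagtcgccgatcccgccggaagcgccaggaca
The Rab28 window held 6 GC boxes, 1 CRE half-site and 1 YY1 core, and was 70% G and C. The Rab11b window held 2 GC boxes and 1 CCAAT match, read on the opposite strand, and was 61.3% G and C. RefSeq windows matched 30 of the 37 members by symbol; those unmatched were Rab2a, Rab2b, Rab22a, Rab23, Rab24, Rab26 and Rab37. A GC box stood in 26 of the 30 (86.7%), beside 65.2% of the 6484 windows of tested genes and 34.9% of all 27457 windows. TATAAA stood in 0 of 30, beside 5.72% and 14.3%. The CRE half-site was in 3 of the 30 windows (10.0%), those of Rab28, Rab21 and Rab3a, beside 13.5% of tested genes and 8.22% of all windows. The YY1 core was likewise in 3 (10.0%), those of Rab28, Rab7a and Rab8b, beside 6.88% and 3.44%. Neither Rab21, Rab3a, Rab7a nor Rab8b was called. CCAAT was in 43.3% of member windows (39.3% and 37.7% of the other sets), CACGTG in 10.0% (10.5% and 6.65%) and GTTGCC in 6.67% (13.0% and 12.2%). Median GC content was 64.5% in the members' windows and 61.5% in those of tested genes. A match is a run of letters and no measured binding.

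Genes near Rab28 on its chromosome were compared as well, a set chosen after the values were seen. Neighbours were taken in the RefSeq order of protein-coding genes in GRCr8, matched by symbol, the 10 nearest tested genes on each side. Untested genes lie between them. Counted in protein-coding genes, Bod1l1 was 2 away and Wdr1 5 away. The farthest were Pacrgl, 26 away on one side, and Tada2b, 29 away on the other. Of these 20 genes 16 had a difference below 0, beside 47.9% of all tested genes, with a median of -0.16, and 0 were called. Their unadjusted p was under 0.05 for 6 of the 20 (Bod1l1, Fbxl5, Tapt1, Lap3, Wdr1 and Tmem128), each lower in KO, and for 13.5% of all genes. Bod1l1, a replication fork protection gene and the nearest tested gene on one side, differed by -0.41 (SE 0.119, limma adjusted p = 0.135). Wdr1, an actin disassembly factor and the nearest on the other side, differed by -0.36 (SE 0.0911, adjusted p = 0.0832), and its KO values all lay below its WT values. Without the 3 libraries, 18 of the 20 were below 0, beside 48.3% of all genes tested in that setting. Bod1l1, Lap3, Wdr1, Lyar and Stx18 were then called, 5 of the 20, beside 3.58% of all genes. Lyar, a nucleolar protein, differed by 0.01 with all libraries and by -0.35 without the 3. The 5 nearest on each side had a median of -0.29, with 9 of 10 below 0. The Rab28 locus also overlaps a long non-coding RNA gene, LOC120096626, in GRCr8, which has no row by symbol. Since the sources used here do not state whether strand was counted, reads from the overlap cannot be told apart. Whether the lower values of Rab28 and of its neighbours are linked was not tested.

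**Figure D2:**
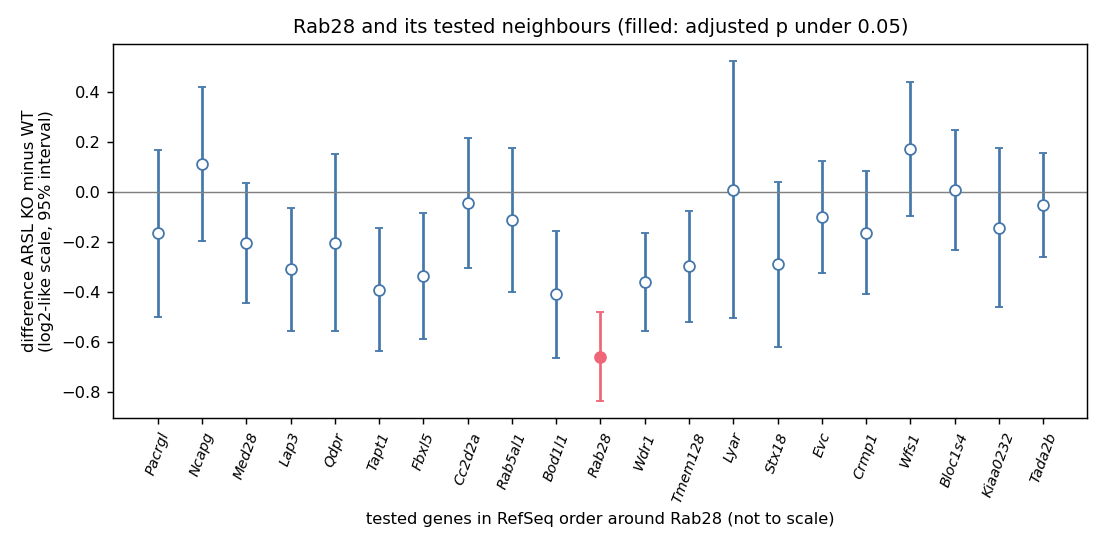
Difference of ARSL KO minus WT (log2-like scale, with 95% limma intervals) for Rab28 and the 10 nearest tested protein-coding genes on each side, in RefSeq order, not to scale and with untested genes left out. Rab28, filled, is lowest at -0.66, and 16 of the 20 neighbours are below 0 with none called.

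The other ciliary Rabs did not pass. Rab34, which acts at an early step of cilium assembly inside the cell, had 572.7, 606.8, 874.2, 852.8 and 724.1 normalised reads in WT and 721.4, 653.9, 770.9, 743.6 and 739.0 in KO. WT 3 and WT 4 were the highest of all 10 libraries for Rab34, and WT 1 and WT 2 the lowest. Its group means were 726.1 ± 138 and 725.8 ± 43.9 (SD, n = 5 each), with a difference of 0.02 and a 95% interval of -0.24 to 0.27. Without the 3 libraries the Rab34 difference was 0.18, and the KO mean was 1.14-fold the WT mean (limma adjusted p = 0.346). Rab23, a negative regulator of hedgehog signalling, had 12.2, 13.5, 9.8, 11.5 and 8.5 normalised reads in WT and 15.0, 11.9, 15.7, 9.8 and 16.1 in KO. These counts are low, the groups overlap, and the difference was 0.11 (SE 0.0985, limma adjusted p = 0.659). The ciliary group thus had 1 of 3 members called, downward, beside 1.14% of all genes tested. Its median was 0.02, or 0.14 without the 3 libraries. The called member, Rab28, was known beforehand to stand out. Rab8a, Rab8b and Rab10, which also act at the cilium but were counted as secretory, were not called. The count therefore does not describe ciliary Rabs as a set.

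**Figure D3:**
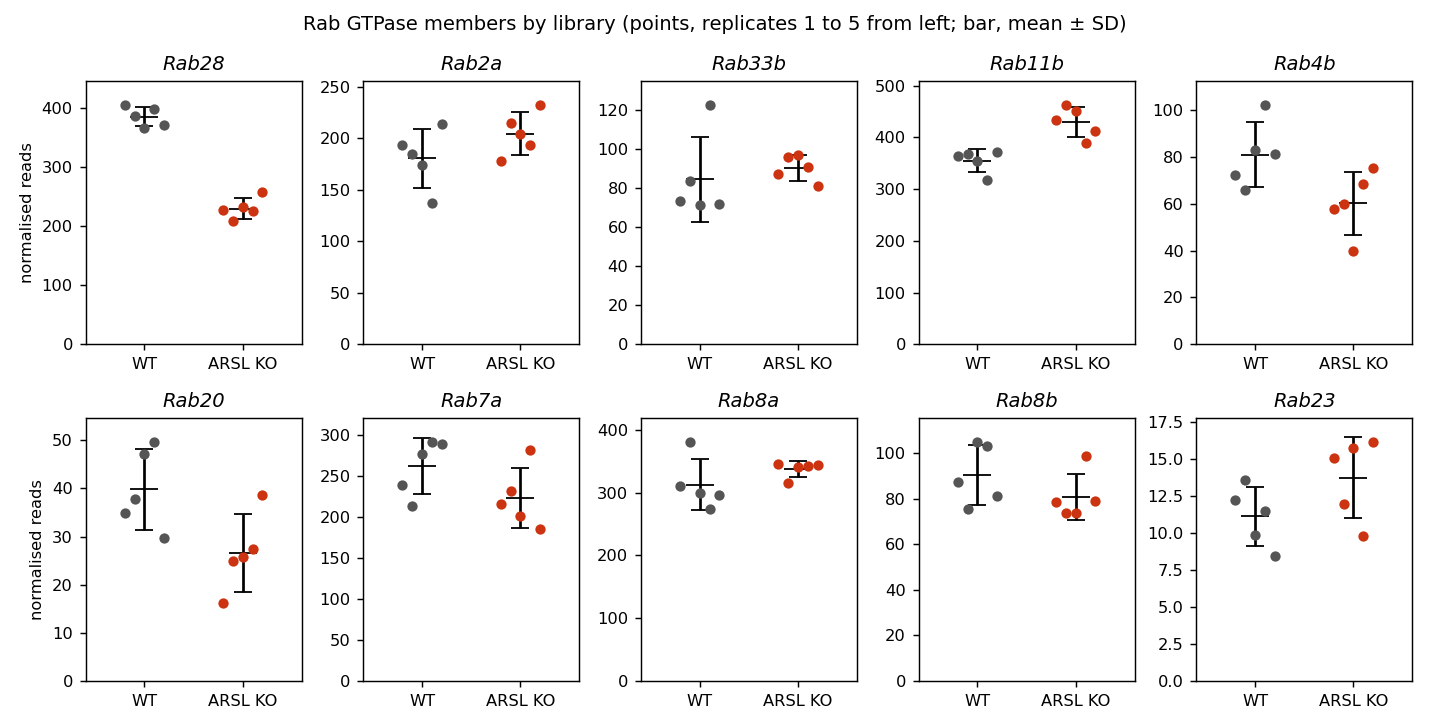
Normalised reads of Rab28 and 9 other Rab GTPases in each library, with WT in grey and ARSL KO in red, points from left to right in replicate order, and black bars for the mean ± SD of 5 libraries. Rab28 and Rab11b are the panels whose groups do not overlap.

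Of the ER and Golgi Rabs, 0 of 7 tested members passed, with 5 differences above 0, 2 below and a median of 0.02. Rab2a, which acts between the ER and the Golgi, had the smallest p of the group. It had 193.5, 184.9, 174.0, 136.7 and 213.5 normalised reads in WT and 178.2, 215.1, 204.0, 193.2 and 232.3 in KO, with the lowest value in WT 4. The groups overlap, and the difference was 0.16 (SE 0.108, limma adjusted p = 0.547), or 0.08 without WT 4 and 0.06 without the 3 libraries. Rab33b, a Golgi Rab that also binds the autophagy protein Atg16l1, had 73.2, 83.2, 71.1, 122.4 and 71.9 in WT and 87.0, 95.6, 96.9, 90.8 and 80.7 in KO. WT 4 was the highest of the 10, the groups overlap, and the difference was 0.08 (SE 0.115, adjusted p = 0.773). That Rab33b difference was 0.19 without WT 4 and 0.17 without the 3 libraries, and 0.05 without WT 1, WT 3 or WT 5.

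The remaining ER and Golgi members lay closer to 0. Rab1a, needed for transport from the ER to the Golgi, had 281.1 ± 34.2 normalised reads across WT and 264.8 ± 38.8 across KO libraries (SD, n = 5 each). Rab6a, which serves retrograde transport at the Golgi, had 261.9 ± 27.0 and 265.4 ± 7.9, and the 95% interval of its difference ran from -0.16 to 0.21. Rab2b, Rab29 and Rab18 differed by 0.07, 0.01 and -0.04. Rab29 is a Golgi Rab that recruits the kinase Lrrk2, and Rab18 works at the ER and lipid droplets. Every interval of the 7 tested members lay within ±0.5 on the log2-like scale, which understates folds at few reads. With limma-voom, whose scale is log2 counts, the intervals were wider for Rab18 (-0.82 to 0.63) and Rab29 (-0.52 to 0.56). Rab43, another Golgi Rab, had 0 to 7 reads per library and was not tested.

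Of the early and recycling endosome Rabs, 0 of 11 tested members passed, with 7 differences above 0, 4 below and a median of 0.02, or 0.08 without the 3 libraries. Rab11b, a Rab of the recycling endosome, had 364.3, 368.7, 353.4, 318.4 and 371.0 normalised reads in WT and 433.7, 462.7, 451.4, 389.4 and 412.6 in KO. All KO values lay above all WT values, with 430.0 ± 29.6 against 355.2 ± 21.7 (SD, n = 5 each), 1.21-fold. The difference of 0.25 (SE 0.0843) did not pass over all genes (limma adjusted p = 0.198; exact permutation test of the 10 values, two-sided p = 0.0079). Leaving out single libraries gave adjusted p from 0.147 to 0.376.

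Rab4b, which serves fast recycling from early endosomes, had 72.3, 65.8, 83.2, 102.3 and 81.4 normalised reads in WT and 58.0, 59.7, 39.7, 68.3 and 75.3 in KO. WT 4 was highest and ARSL KO 3 lowest, and the groups overlap. The difference was -0.29 (SE 0.122, limma adjusted p = 0.307), or -0.23 without the 3 libraries. Rab15, which acts on receptor recycling, had 16.3 ± 6.15 normalised reads across WT and 23.6 ± 6.29 across KO libraries, with a difference of 0.24 and a 95% interval of -0.03 to 0.50. Its WT 4 value of 26.8 lay above 3 of the 5 KO values. Without the 3 libraries the Rab15 difference was 0.39, and its KO mean was 1.95-fold the WT mean instead of 1.45-fold (limma adjusted p = 0.119).

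The early endosome Rabs proper differed little between the groups. Rab5c, which with its paralogues drives fusion of early endosomes, had 660.0 ± 57.5 normalised reads across WT and 602.5 ± 28.7 across KO libraries, a difference of -0.12 with an interval of -0.30 to 0.06. Rab5b had 479.6 ± 22.9 and 503.6 ± 69.4. Rab21, known for moving integrins, had 244.6 ± 21.8 and 247.7 ± 7.79, a difference of 0.02 with an interval of -0.16 to 0.20. Rab22a, Rab31 and Rab35, which act in endosomal sorting and recycling, differed by -0.03, -0.13 and 0.02, and Rab11a and Rab4a by 0.03 and 0.10. Rab12, with 1 to 11 reads per library, was not tested.

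Of the late endosome, lysosome and autophagy Rabs, 0 of 5 passed, with 4 differences below 0 and 1 above. The median was -0.19 with all libraries and -0.10 without WT 3, WT 4 and ARSL KO 4. Rab20, found on endosomes and phagosomes, had 34.9, 37.7, 47.0, 49.7 and 29.6 normalised reads in WT and 16.1, 25.0, 25.8, 27.3 and 38.6 in KO. WT 3 and WT 4 were highest and ARSL KO 1 lowest, and ARSL KO 5 lay above 3 of the WT libraries. Its difference was -0.31 (SE 0.124, limma adjusted p = 0.278), 1.5-fold lower in normalised reads with all libraries and 1.29-fold without the 3.

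Rab7a, the central Rab of late endosomes and lysosomes, had 238.8, 212.9, 276.8, 291.6 and 288.6 normalised reads in WT and 215.8, 231.3, 201.3, 281.1 and 185.6 in KO. ARSL KO 4 was the highest KO library and lay within the upper WT values. The difference was -0.20 (SE 0.114, limma adjusted p = 0.469). Rab9a, which serves transport from late endosomes to the Golgi, had 49.3 ± 9.58 normalised reads across WT and 39.3 ± 7.2 across KO libraries, a difference of -0.19 with an interval of -0.43 to 0.05. Rab24, linked to autophagy, and Rab7b, which acts between late endosomes and the Golgi, differed by -0.09 and 0.01.

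Of the secretory Rabs, 0 of 7 tested members passed, with 6 differences below 0, 1 above and a median of -0.06, or 0.01 without the 3 libraries. Rab8a, which carries cargo from the Golgi to the plasma membrane and into the cilium, had 311.2, 381.3, 299.8, 273.4 and 297.0 normalised reads in WT and 345.7, 316.1, 341.6, 342.5 and 344.4 in KO. WT 2 was the highest of the 10, and the KO values lay above the other WT values. The Rab8a difference was 0.11 (SE 0.0925, limma adjusted p = 0.633). It was 0.17 without WT 2, 0.07 without WT 4 and 0.03 without the 3 libraries. Its paralogue Rab8b had 87.2, 75.5, 105.0, 103.2 and 81.4 in WT and 78.4, 73.9, 73.9, 98.6 and 78.9 in KO. WT 3, WT 4 and ARSL KO 4 were its 3 highest libraries, and its difference was -0.11 (SE 0.102, adjusted p = 0.647), or -0.07 without WT 3 and -0.06 without the 3.

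Rab10, a Rab of exocytic vesicles, had 559.2 ± 56.2 normalised reads across WT and 527.9 ± 46.8 across KO libraries (SD, n = 5 each). Rab13, known from tight junction traffic, had 145.7 ± 18.1 and 142.6 ± 19.1. Rab3a and Rab3d, Rabs of regulated secretion, differed by -0.01 and -0.06. Rab26, which sits on secretory vesicles, spread widely, from 9.9 to 42.0 normalised reads in KO, the highest in ARSL KO 4, and its interval ran from -0.52 to 0.20. Rab27b, with 2 to 9 reads per library, and Rab37, with 1 to 11, both Rabs of secretory granules, were not tested. Over the whole family, 29 of the 33 intervals lay within ±0.5 on the log2-like scale, and the exceptions were Rab28, Rab4b, Rab20 and Rab26. That scale draws differences of genes with few reads toward 0, so this bound does not hold for log2 folds. With limma-voom, whose scale is log2 counts, intervals of further members left ±0.5. Examples were Rab15 (-0.06 to 1.13), Rab23 (-0.29 to 0.85) and Rab18 (-0.82 to 0.63).

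**Figure D4:**
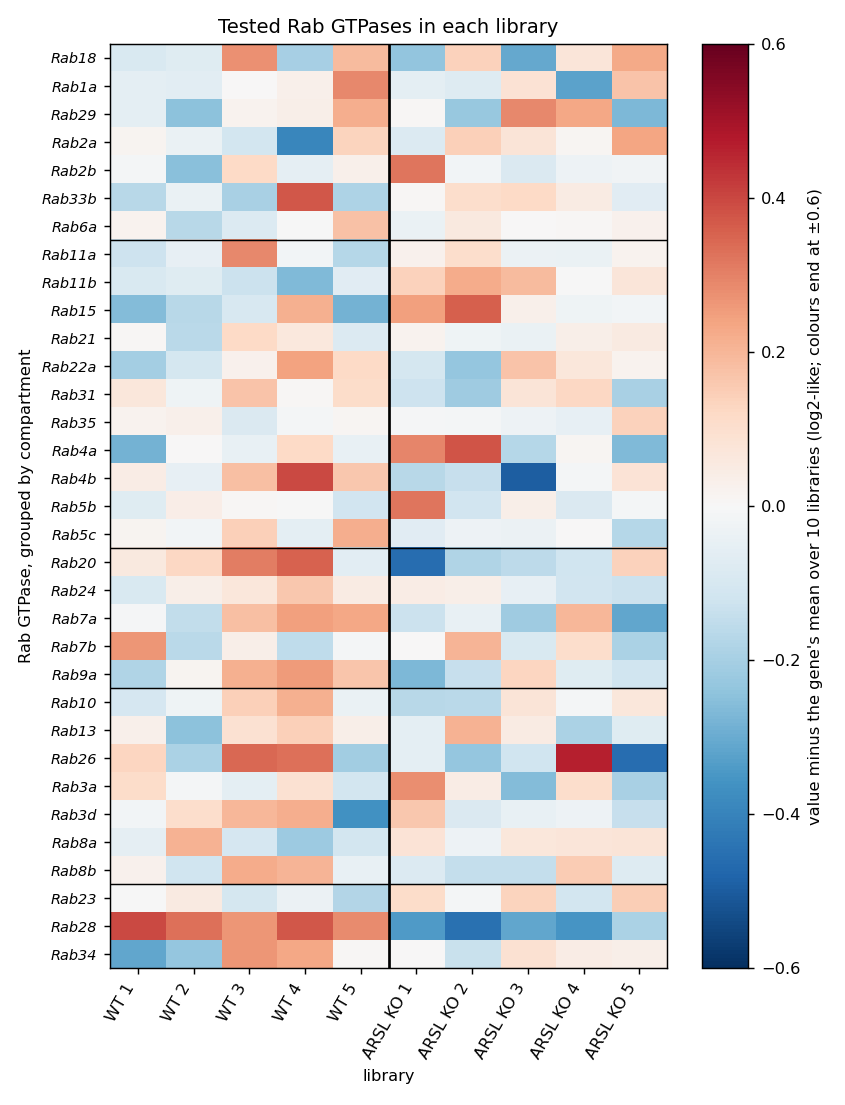
Each tested Rab GTPase (rows, grouped by compartment) in each library (columns, WT left of the line), as the value minus the gene's mean over the 10 libraries on the log2-like scale. Rab28 is the row that is above its mean in all 5 WT libraries and below it in all 5 KO libraries.

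Close paralogues were compared within libraries, in 6 pairs chosen after the values were seen, by the difference of their log2-like values. Rab11b minus Rab11a was 1.12 ± 0.215 in WT and 1.34 ± 0.074 in KO (SD over 5 libraries; two-sided exact permutation p = 0.0317, and 0.19 after Benjamini-Hochberg adjustment over the 6 pairs). Rab4b minus Rab4a was 0.82 ± 0.147 in WT and 0.43 ± 0.359 in KO (exact permutation p = 0.0873, adjusted 0.214). Both comparisons fell short of the threshold after adjustment, and all 6 pairs had overlapping groups. The adjusted p was 0.214 for Rab5b and Rab5c and for Rab8a and Rab8b (exact permutation test), and 0.705 and 0.73 for Rab2a and Rab2b and for Rab3a and Rab3d. How the authors counted reads that fit more than 1 paralogue is not stated in these sources, so the split within a pair is uncertain.

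Among 105 tested regulators and effectors of Rab GTPases, 1 was called lower and 0 were called higher. The lists held the prenylation enzymes and the GDP dissociation inhibitors that chaperone Rabs in the cytosol (0 of 8 called), GEFs (0 of 35), GAPs (0 of 24) and effectors (1 of 38). Their medians were -0.03, 0.01, -0.04 and -0.01. This count of 1 in 105 was near the 1.14% called over all genes. KO and WT values did not overlap for 6 of the 105, and for 4.26% of all genes. Of the 6, Mlph, Myrip and Ccz1 were lower in KO, and Tbc1d8b, Uso1 and Gapvd1 were higher.

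The called gene was Mlph, melanophilin, which links Rab27a on melanosomes to the motor myosin Va. It had 43.6, 38.7, 53.6, 51.6 and 42.3 normalised reads in WT and 33.3, 21.7, 12.0, 17.6 and 13.5 in KO. All KO values were below all WT values, and the fall was 2.34-fold, or 0.65 on the log2-like scale, with an SE of 0.126 (limma adjusted p = 0.0207). The call was lost without WT 3, ARSL KO 2, ARSL KO 3 or ARSL KO 5 (adjusted p = 0.0518, 0.051, 0.0709 and 0.0805), and the fall was 2.06-fold without the 3 libraries. Myrip, another Rab27 effector that binds myosin, named after its values were seen, had 60.8 ± 6.37 in WT and 38.8 ± 3.93 in KO, also without overlap (difference -0.39, adjusted p = 0.0616).

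In the other lists, the member with the smallest p did not pass. Rabggtb, the beta subunit of the enzyme that prenylates Rabs, had 208.7 ± 33.9 normalised reads across WT and 275.9 ± 37.6 across KO libraries (difference 0.35, limma adjusted p = 0.2). Ccz1, which with Mon1 forms the GEF of Rab7, had 261.6 ± 22.7 in WT and 198.7 ± 15.2 in KO, without overlap (difference -0.34, adjusted p = 0.0935; 0.00501 without the 3 libraries). Tbc1d8b, a protein with a Rab GAP domain, had 63.2 ± 13.2 in WT and 99.8 ± 13.9 in KO, without overlap (difference 0.46, adjusted p = 0.0788; 0.0279 without the 3 libraries).

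**Figure D5:**
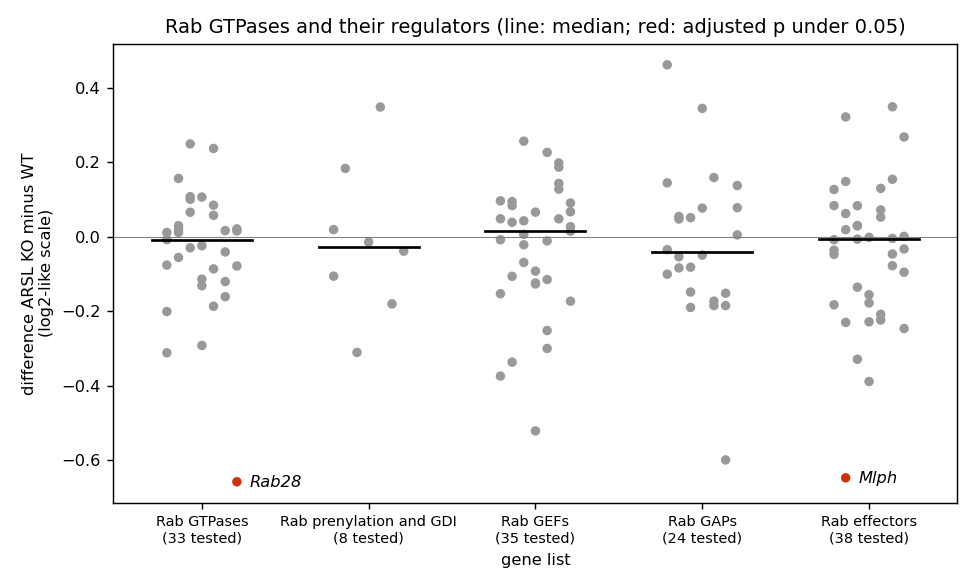
Difference of ARSL KO minus WT on the log2-like scale for each tested gene of the Rab family and of 4 regulator lists, with black lines at the medians and called genes in red. The medians lie between -0.04 and 0.01, and Rab28 and Mlph are the called genes.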

How the data were processed

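The values the authors deposited, 10184 genes in 10 libraries, are on a variance-stabilized, log2-like scale. Per the submitters' processing notes, bcl2fastq, STAR 2.7.11a, HTSeq and build rn6 were used; which tool transformed the values, and which filter chose the genes, is stated in none of the sources used here. Inverting the scale gave whole reads for 100% of values (tolerance 0.001 reads). Genes averaging 1 or more above 4.42, the lowest value, were tested with limma 3.58.1 in R 4.3.3 (intensity trend, two-sided, Benjamini-Hochberg over 8431 genes). Exact permutation tests used 252 assignments. The fit was also run on simulated data with libraries drawn independently, which does not cover the split of WT 3 and WT 4 from the other libraries. Chi-square per degree of freedom between replicates was lowest for WT 1 and WT 2 (1.85), ARSL KO 1 and ARSL KO 2 (2.19) and WT 3 and WT 4 (2.37). WT 3 or WT 4 against WT 1, WT 2 or WT 5 gave 15.7 to 21.3. Even the lowest value exceeded sampling noise, so no library was removed. The replicates thus differed unevenly. The main fit treated the 5 libraries of each group as independent, which was not tested. Members, compartments, lists and tests were chosen with earlier results of these data known. Given in full were called members, those without overlap, the 2 smallest p per compartment, and, per regulator list, called genes and the smallest p; further members are given more briefly. Figures used matplotlib 3.10.9.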

Additional observations from a re-analysis of the deposited data

Results flagged for a closer look

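Among the 10 Rab genes and 4 regulators given in full, 3 of 28 groups of 5 libraries held a value far from the other 4 on the log2-like scale, where about 1 in 20 groups would by chance. Rab33b in WT 4 was at 7.34, with the nearest WT library at 6.93. Rab8a in ARSL KO 2 was at 8.48, with the nearest KO library at 8.58. Rab8b in ARSL KO 4 was at 7.11, with the nearest KO library at 6.88. None of these genes was called, and none of these values belongs to Rab28.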

How the results depend on the processing

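Rab28 kept its direction and its call under all 20 alternatives, with differences from -0.75 (limma-voom, whose scale is log2 counts) to -0.63 and adjusted p from 6.03e-05 to 0.00809, and it was the 1 called member in each. The count of called regulators was 1 with all libraries, 2 without an intensity trend, 4 with array quality weights, 0 to 1 when single libraries were left out, and 3 without WT 3, WT 4 and ARSL KO 4 together, the alternative added with the data in view. With the stricter filter the count was again 1, but the gene was Myrip, since Mlph was below the filter and was not tested. With a replicate block Rab28 differed by -0.66 (limma adjusted p = 0.00344), and the count of all called genes went from 96 to 136. Deviations of same-numbered libraries from their group means had correlations of -0.29 to 0.59, mixed values that do not settle whether the numbers pair the samples. WT 1 and WT 2 correlated most with ARSL KO 5 (0.45 and 0.44), and WT 3 with ARSL KO 4 (0.58). WT 4 and WT 5 correlated most with the KO library of their own number (0.59 and 0.26). The labels do not state a pairing, so the main fit used no block. The block changed no call among the genes given in full. None of the 14 genes given in full changed sign in any alternative where it was tested. Without the 3 libraries, 6 of the 33 members did (Rab29, Rab22a, Rab7b, Rab10, Rab13 and Rab3d), none of them called in either setting. Over all genes the count of 96 became 56 when WT 3 was left out, 53 for ARSL KO 1, 37 for ARSL KO 2, 33 for ARSL KO 3 and 37 for ARSL KO 5. It was 60 with the stricter filter, 105 without an intensity trend, 219 with array weights and 300 without the 3 libraries. The settings that called more regulators thus also called more of all genes. Members with few reads, such as Rab23, Rab12 and Rab43, limit what could be detected.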
